A study of Mus musculus with 24 samples.

Results

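The 10 genes described here encode hydrolases and a partner that make and break down monoacylglycerols, N-acylethanolamines and triglycerides: Mgll, Abhd6, Abhd12, Dagla, Daglb, Faah, Napepld, Pnpla2, Abhd5 and Lipe. They are 10 of the 45547 gene names on the arrays. The list was built around Mgll, which was selected on its difference between the dormant line D and the parental line M and between DB#3 and M. The differences of Mgll between melanoma lines are therefore given as a description with no test, and the other 9 genes were added by function.

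The arrays measured total RNA of 7 mouse cell lines, 1 RNA sample per array, on 24 single-colour Agilent arrays labelled with cyanine 3. The 5 melanoma lines are B16F1-GFP-M (M, the parental line, 3 arrays), B16F1-GFP-D (D, 4 arrays), B16F1-GFP-DB#1 (DB#1, 4 arrays), B16F1-GFP-DB#2 (DB#2, 3 arrays) and B16F1-GFP-DB#3 (DB#3, 3 arrays). All 5 descend from B16F1 mouse melanoma carrying a green fluorescent protein marker and were grown in DMEM with serum. D came from a syngeneic mouse model in which vaccination with irradiated, GM-CSF-expressing cells held melanoma dormant. The DB lines are a later generation of dormant cells derived from a brain site, so generation and site cannot be told apart in them. The 2 lines labelled myeloid are M0 (4 arrays) and J365 (3 arrays), for which the labels give no treatment or medium. The titles of all their arrays also carry the tag p20. The melanoma arrays read cultured cells and not cells inside the animal, and nothing in the labels says that arrays of a line came from separate cultures. The p-values therefore measure the spread between these arrays.

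Monoacylglycerol lipase, the product of Mgll, hydrolyses 2-arachidonoylglycerol and other monoacylglycerols to a free fatty acid and glycerol, and so ends endocannabinoid signalling and completes the breakdown of triglycerides. 2-Arachidonoylglycerol is made by the diacylglycerol lipases DAGLα and DAGLβ (Dagla, Daglb) and is also hydrolysed by ABHD6 and ABHD12, whereas anandamide is made by NAPE-PLD (Napepld) and hydrolysed by fatty acid amide hydrolase (Faah). In triglyceride lipolysis the adipose triglyceride lipase ATGL (Pnpla2), with its co-activator CGI-58 (Abhd5), removes the first fatty acid, hormone-sensitive lipase (Lipe) the next, and monoacylglycerol lipase the last.

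RefSeq lists a pair of start sites for Mgll in mouse build GRCm38.p6, on the plus strand of chromosome 6, and the 2 Mgll probes of the array were designed to different transcript accessions, so the windows around both starts are shown. Napepld, the gene of the group that followed Mgll most closely across the melanoma arrays, is shown beside it from the minus strand of chromosome 5. Each window runs 5′ to 3′ from 250 bases before the start site to 50 after it, and capitals mark CACGTG (the E-box), CATGTG (a related box), GGGCGG (the GC box) and TATAAA (the TATA box) on either strand.
Mgll, chr6:88724162-88724461: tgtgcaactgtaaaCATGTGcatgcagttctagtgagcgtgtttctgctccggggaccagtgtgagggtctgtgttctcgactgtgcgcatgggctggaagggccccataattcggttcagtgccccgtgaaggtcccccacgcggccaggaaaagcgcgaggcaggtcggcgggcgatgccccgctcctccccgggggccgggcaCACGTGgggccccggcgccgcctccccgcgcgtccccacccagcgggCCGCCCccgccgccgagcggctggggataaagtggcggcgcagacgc
Mgll, chr6:88724454-88724753: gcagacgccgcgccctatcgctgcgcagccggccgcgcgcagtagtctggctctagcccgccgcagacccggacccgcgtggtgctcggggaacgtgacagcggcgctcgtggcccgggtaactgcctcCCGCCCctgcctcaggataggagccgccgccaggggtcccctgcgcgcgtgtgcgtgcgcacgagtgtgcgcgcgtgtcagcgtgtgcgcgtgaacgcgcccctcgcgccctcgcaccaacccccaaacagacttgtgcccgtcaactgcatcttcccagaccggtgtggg
Napepld, chr5:21701573-21701872: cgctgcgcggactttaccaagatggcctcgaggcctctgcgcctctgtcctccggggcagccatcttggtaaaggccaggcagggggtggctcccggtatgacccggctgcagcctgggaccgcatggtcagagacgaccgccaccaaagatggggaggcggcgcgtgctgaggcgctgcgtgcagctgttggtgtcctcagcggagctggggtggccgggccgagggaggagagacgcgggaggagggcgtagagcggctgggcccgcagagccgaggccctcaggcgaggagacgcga
The first Mgll window holds 1 CACGTG, 1 CATGTG and 1 GGGCGG in its reverse form, and the second holds 1 GGGCGG in its reverse form. The Napepld window holds none of these letters. Among 32851 mouse windows of the same length, 7.15% held CACGTG, 14.2% CATGTG, 35.7% GGGCGG and 13.6% TATAAA on either strand. The motifs do not overlap each other in these windows. These are matches of letters and were not tested for binding.

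Levels below are log2 signal less the 75th percentile of the same array, and a difference is the mean of one line minus that of another on this scale, given ± its standard error where tested. A probe counts as detected where the scanner software called it well above background. In every comparison, limma was fitted to all 24 arrays and a gene was called where its Benjamini-Hochberg adjusted p over all genes tested was under 0.05. Between 43.7% (D replicate 1) and 53.9% of probes were detected on 23 arrays, and 89.9% on D replicate 3. All 8 melanocytic markers were detected on all 17 melanoma arrays. Their mean level was 6.68 to 7.58 there and -4.46 to -4.09 on the 7 myeloid arrays. On the myeloid arrays 3 or 4 of the 8 were detected, with Tyr, Mitf and Sox10 on all 7. All 8 blood markers were detected on every myeloid array. Their mean level was 1.89 to 2.99 there and -4.97 to -2.66 in melanoma. In melanoma 7 of the 8 were detected on D replicate 3 and 2 to 4 on the other 16 arrays. Fcer1g and Lcp1 were detected on all 17 melanoma arrays, Coro1a on 16 and Ptprc on 0.

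Mgll was high in the parental line and in DB#2 and low in D, DB#1 and DB#3. In M it stood at 4.29, 3.04 and 3.05 in replicates 1 to 3 (3.46 ± 0.72, mean ± SD, n = 3). In D it stood at 1.87, 0.14, -0.098 and -0.019 in replicates 1 to 4 (0.47 ± 0.93, n = 4). Every D array lay below every M array, and replicate 1 of D lay apart, between the other D arrays and M. The difference of D from M was -2.99, a level 7.94-fold lower on this scale. Without replicate 1 the remaining D arrays had a mean of 0.0071 ± 0.12 (n = 3) and a level 10.96-fold below M, and without replicate 3, the array with the many detected probes, the fold was 6.96. Within the 3 slides the difference of D from M was -2.05, -3.14 and -4.31. In a bulk sample, fewer cells with the transcript and less transcript per cell cannot be told apart.

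The later lines split. DB#1 had levels of 0.24, 0.28, 0.57 and 0.38 (0.37 ± 0.15, n = 4) and DB#3 had 1.2, 0.45 and 0.70 (0.79 ± 0.38, n = 3), all under every M array. DB#2 had 3.95, 3.40 and 3.40 (3.58 ± 0.32, n = 3), all inside the range of M. Ordered by mean, the levels ran DB#2, M, DB#3, D, DB#1. DB#2 and M overlapped, DB#3, D and DB#1 overlapped, and no array of the upper pair came down to any array of the lower 3 lines. Against M the differences were -3.09 for DB#1, 0.12 for DB#2 and -2.68 for DB#3. The sign of the DB#2 difference was not settled by these arrays, being 0.35, 0.90 and -0.89 within the 3 slides and -0.088 without M replicate 2. DB#1 and D differed by -0.10, which turned to 0.36 without D replicate 1.

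DB#2 and DB#1 were set side by side after these levels had been seen, so for Mgll this too is a description. Mgll was higher in DB#2 by 3.21, or 9.28-fold, with no overlap of the arrays. Within slides the difference was 2.83, 3.70 and 3.07, and over 16 alternative settings it ran from 3.03 to 3.37. In this comparison 5.47% of 21065 genes were called. None of the other 8 genes tested was called by limma, and 1, Napepld, had an unadjusted p under 0.05 (difference 0.51 ± 0.16, adjusted p = 0.0643).

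The second Mgll probe gave the same order of lines at its own level. It read 1.94, 0.52 and 0.93 in M, -0.29, -1.84, -2.04 and -2.27 in D, and 1.72, 1.15 and 0.92 in DB#2. DB#1 lay between -1.91 and -1.51 and DB#3 between -1.80 and -1.08. Its difference of D from M was -2.74, and replicate 1 of D again stood apart from the rest of D. Neither probe was detected on any of the 7 myeloid arrays, where the first read between -6.50 and -6.18. Mgll was thus at least 188-fold lower in M0 than in M, which had mean signals of -6.31 and 3.46.

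**Figure D1:**
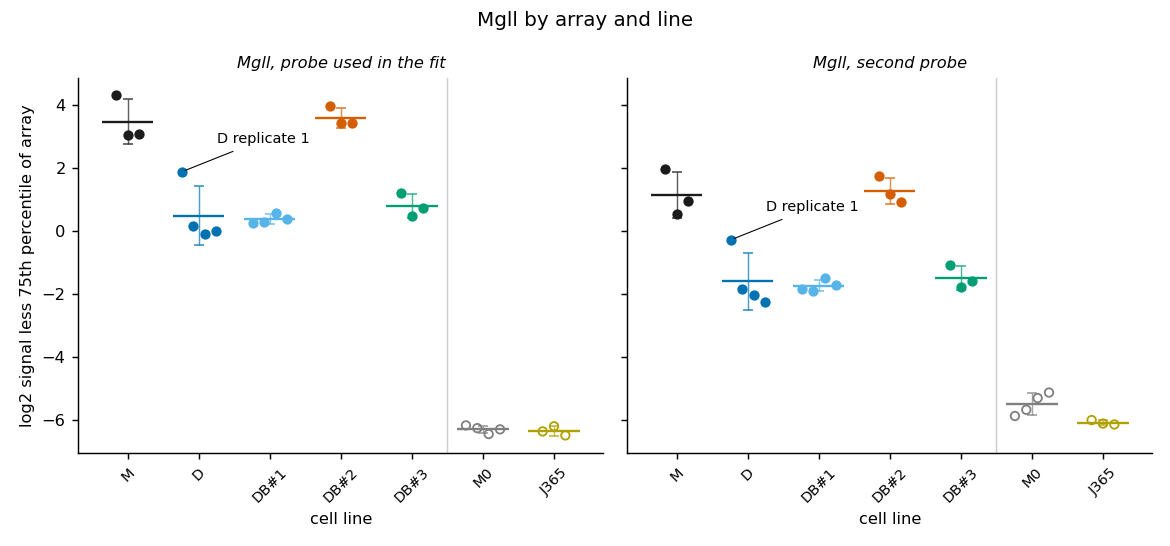
Mgll on each of the 24 arrays, by line, for the probe used in the fit (left) and the second probe (right). The y axis is log2 signal less the 75th percentile of the array, filled points are well above background, open points are not, lines are means and bars are 1 SD either side; for both probes M and DB#2 lie above D, DB#1 and DB#3, and D replicate 1 lies above the other D arrays.

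ABHD6 and ABHD12 are the other serine hydrolases of 2-arachidonoylglycerol, and neither was called between melanoma lines in the main setting. Abhd6 stood at 0.56, 0.40 and 0.058 in M and at 0.015, -0.56 and -0.19 in DB#2, all 3 lower than any M array. The difference was -0.58 ± 0.17 and did not pass (adjusted p = 0.0796, limma). In DB#1 the difference was -0.44 ± 0.16, again with no overlap (adjusted p = 0.187, limma), and its second probe differed by -0.53 there and by -0.37 in DB#2. In D and DB#3 the fitted probe overlapped M, with differences of -0.33 and -0.27, and the second probe gave -0.49 and -0.42. On the second probe every array of the derived lines lay below every M array. With slide as a block the DB#1 and DB#2 differences were called (adjusted p = 0.0296 in DB#1 and 0.0120 in DB#2, limma). Abhd12 was nearly level across the melanoma lines, with means from 1.40 in DB#1 to 1.70 in DB#2. Its widest spread was within D, where replicate 1 read 2.24 and replicate 3 read 0.91.

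Neither diacylglycerol lipase was called between melanoma lines. Dagla stood at -0.025, 0.20 and -0.17 in M, and every array of DB#2 (0.57, 0.30, 0.96) and of DB#3 (0.64, 0.89, 0.49) was higher. The differences from M were 0.61 ± 0.23 in DB#2 (adjusted p = 0.213, limma) and 0.67 ± 0.23 in DB#3 (adjusted p = 0.173, limma). Daglb overlapped between M and each derived line, with differences from -0.21 in DB#3 to 0.11 in DB#2. The order of Dagla across lines was thus not that of Mgll, since DB#2 and DB#3 were alike in Dagla and far apart in Mgll.

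Napepld, which makes N-acylethanolamines, ran closest to Mgll among the 9 genes. It stood at -0.41, -0.80 and -0.27 in M and at -1.04, -0.94, -1.20 and -1.11 in D. DB#1 read -1.01, -0.93, -0.96 and -1.30, DB#2 read -0.64, -0.48 and -0.49, and DB#3 read -0.88, -0.94 and -0.63. On this probe, the one used in the fit, all D and DB#1 arrays were below all M arrays, DB#2 lay within the range of M, and DB#3 overlapped M. The differences from M were -0.57 ± 0.16 in D (adjusted p = 0.0538, limma) and -0.56 ± 0.16 in DB#1 (adjusted p = 0.0561, limma), neither passing the threshold, and -0.041 ± 0.17 in DB#2 (adjusted p = 0.999, limma). With slide as a block the differences in D and DB#1 were called (adjusted p = 0.00608 and 0.0108, limma). Napepld rose from D to DB#2 by 0.53 ± 0.16 (adjusted p = 0.0484, limma), but with the replicate number as a block the difference was 0.49 with an adjusted p of 0.0700, and the call was lost on leaving out any one array of either line. The second probe gave 0.21 there, and against M it gave -0.32 in D, -0.48 in DB#1, -0.11 in DB#2 and -0.52 in DB#3. On the second probe DB#2 and DB#3 lay wholly below M, and D overlapped M through replicate 3, at -2.22. Over the 17 melanoma arrays Pearson's r of Napepld with Mgll was 0.80, a description over arrays that share lines and slides.

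Faah, which hydrolyses anandamide, went the other way in DB#2. It stood at 0.83, 0.92, 0.60 and 0.93 in D and at 0.43, -0.32 and 0.20 in DB#2, with no overlap. The difference of DB#2 from D was -0.72 ± 0.20 and passed the test (adjusted p = 0.0324, limma). The call was lost without D replicate 2, D replicate 4, DB#2 replicate 2 or DB#2 replicate 3, with normexp background correction (adjusted p = 0.0680), without the filter on dim probes and with the arrays of the 2 lines alone, and the difference ran from -1.20 to -0.17 within slides. M, at 0.42, 0.65 and 0.66, overlapped both lines, and r with Mgll over the 17 arrays was -0.51.

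The lipases of triglyceride breakdown showed no called difference between melanoma lines. Pnpla2, which encodes ATGL, read 3.17, 3.01 and 2.90 in M and between 2.74 and 3.45 on the derived lines, overlapping in each. Its differences from M ran from -0.074 in D to 0.18 in DB#3. Abhd5 read 1.85, 1.39 and 1.21 in M, and the differences of the derived lines ran from -0.036 in DB#2 to 0.20 in D, where replicate 1 alone read 2.53. Lipe was detected on 1 of 17 melanoma arrays, D replicate 3, where it read -1.38 against -5.55 or less on the other D arrays. It could not be tested between melanoma lines, and D replicate 3 was also the array with 89.9% of probes detected. Every marker list of another cell type was highest on that array among the melanoma arrays: blood at -2.66 with 7 of 8 genes detected, fibroblast at -3.03 with 6 of 7, adipocyte at -3.19 with 6 of 7 and endothelial at -4.24 with 2 of 5. On the other 16 melanoma arrays these lists were at -3.87, -4.15, -4.84 and -5.32 or less, and the melanocytic list, at 6.68 on D replicate 3, was at 7.20 or more. The part of these differences in the Lipe value was not tested.

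**Figure D2:**
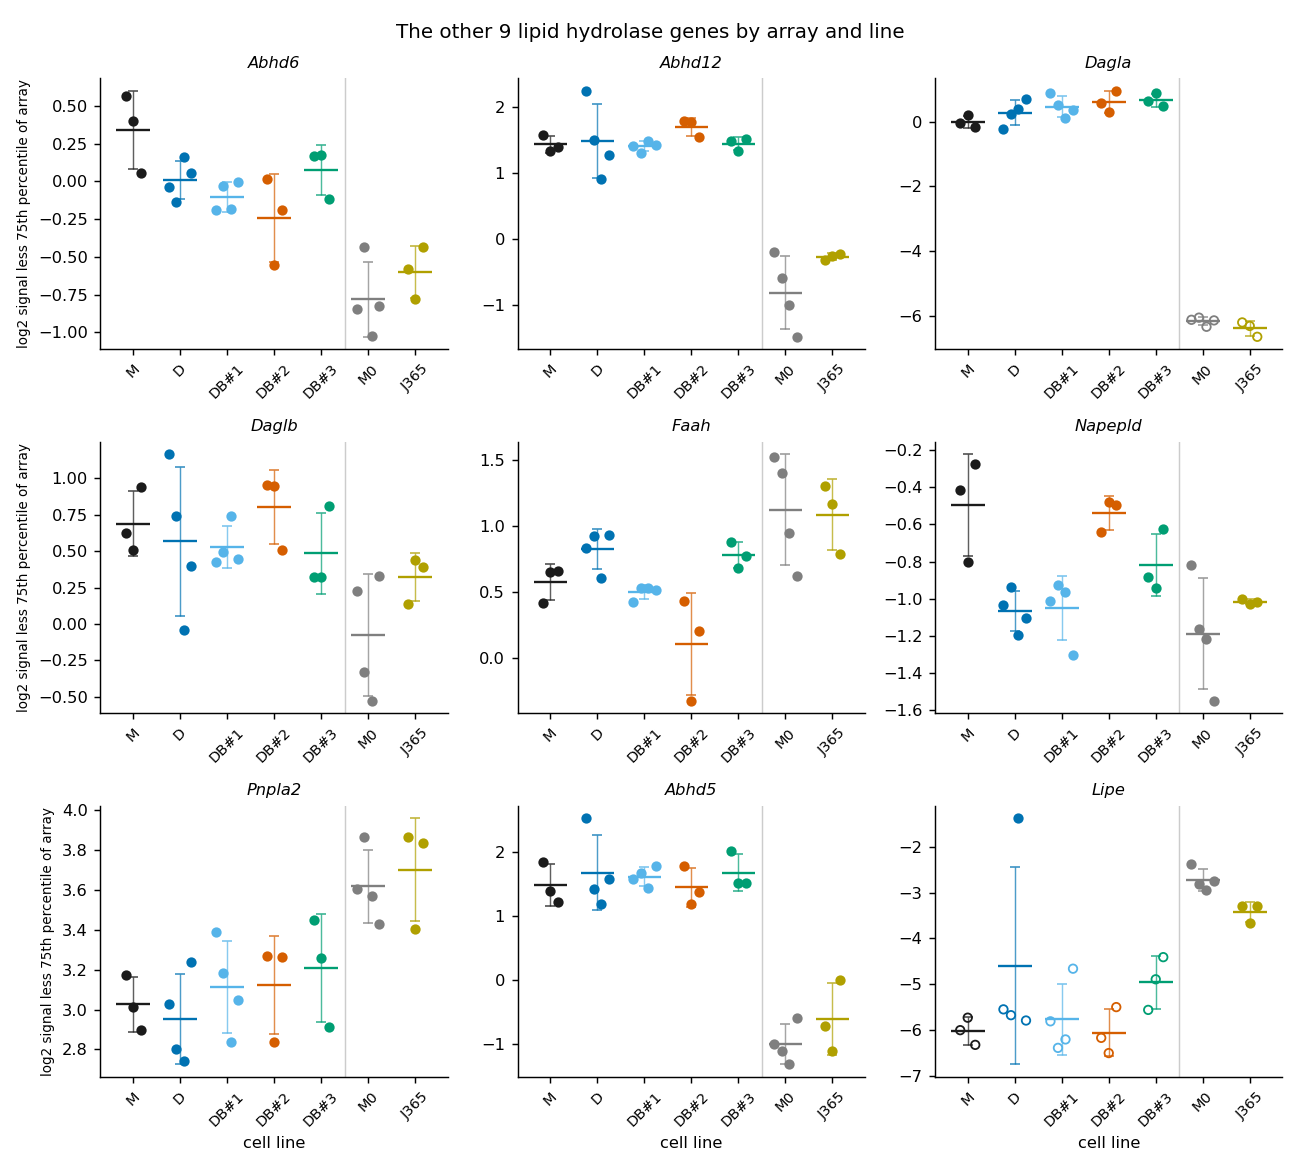
The other 9 genes on each array, by line, with each panel on its own y axis (log2 signal less the 75th percentile of the array). Filled points are well above background, open points are not, lines are means and bars 1 SD either side; Napepld is lower in D and DB#1 than in M, Dagla is undetected in M0 and J365, and Lipe is detected in those lines and on 1 melanoma array.

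Set against all genes, the 8 other members that could be tested in each melanoma comparison seldom passed. Against M, 0 of 8 were called by limma in D (2.96% of 20145 genes called), DB#1 (3.69% of 20708), DB#2 (3.44% of 20951) and DB#3 (2.76% of 20581). At an unadjusted p under 0.05 the counts were 1, 3, 3 and 1 of 8. Against D, 0 of 8 were called in DB#1 (0.475% of 20203 genes) and in DB#3 (0.369% of 20033), with 0 at an unadjusted p under 0.05 in both. In DB#2 against D, 2 of 8 were called, Napepld higher and Faah lower, where 6.34% of 20651 genes were called. With Mgll included, the median difference of the 9 tested members from M was -0.074 in D, -0.076 in DB#1, 0.096 in DB#2 and 0.0081 in DB#3, beside -0.012, 0.037, 0.017 and 0.029 over all genes tested. These comparisons share the arrays of M or of D.

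**Figure D3:**
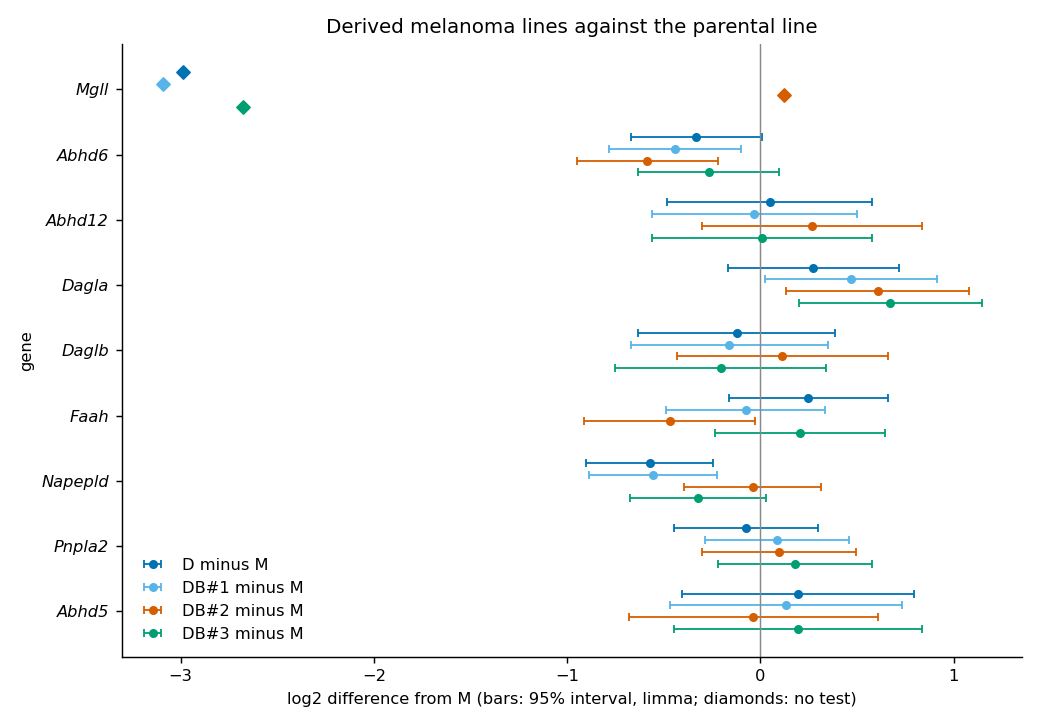
Difference of each derived melanoma line from M (x axis, log2) for the 9 genes that could be tested (y axis). Bars are 95% intervals from limma, and the Mgll points are diamonds with no interval because Mgll was selected on these contrasts; Mgll lies near -3 in D, DB#1 and DB#3 and near 0 in DB#2, while the other genes lie between -0.58 and 0.67.

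Among other genes of the endocannabinoid system, Fabp7 followed the pattern of Mgll. Fabp7 encodes a brain-type fatty acid-binding protein that can carry fatty acids and endocannabinoids inside the cell. It stood at 2.96, 2.93 and 2.97 in M, at 1.93, 2.02, 1.64 and 2.04 in D, and at 3.30, 3.02 and 3.05 in DB#2. DB#1 lay between 1.61 and 1.90 and DB#3 between 1.87 and 2.10, so that all arrays of D, DB#1 and DB#3 were below all arrays of M and DB#2. It fell by 1.05 ± 0.19 in D (adjusted p = 0.0022), by 1.15 ± 0.19 in DB#1 (adjusted p = 0.00059) and by 0.95 ± 0.20 in DB#3 (adjusted p = 0.00905, limma throughout). From DB#1 to DB#2 it was higher by 1.32 ± 0.19 (adjusted p = 0.000127, limma). A call was ended by 2 alternatives, the fit with the arrays of D and M alone (adjusted p = 0.0563) and leaving out DB#3 replicate 3 (adjusted p = 0.0608, limma). D replicate 1 did not stand apart from the other D arrays for Fabp7, as it did for Mgll. Of the 18 genes on this list, 9 were tested against M in each line. Fabp7 was the 1 called in D, DB#1 and DB#3, and 0 were called in DB#2, with 0 at an unadjusted p under 0.05. Over all genes 2.96%, 3.69%, 2.76% and 3.44% were called in D, DB#1, DB#3 and DB#2.

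G0s2 separated the parental line from all its descendants. G0s2 encodes a small protein that binds and inhibits ATGL, the product of Pnpla2. It was not detected on any M array, at -5.73, -5.43 and -5.16, and was detected on all 14 arrays of the derived lines. It read -1.48, -2.09, -0.90 and -2.42 in D and -0.26, -1.45, -1.31 and -1.38 in DB#1. DB#2 read -2.17, -1.63 and -1.92, and DB#3 -0.75, -1.57 and -0.95. No derived array overlapped an M array. G0s2 rose at least 5.93-fold in D (adjusted p = 3.72e-06), 9.13-fold in DB#1 (2.22e-07), 5.23-fold in DB#2 (1.26e-05) and 9.18-fold in DB#3 (7.1e-07), all by limma. Those are lower bounds, set by the dimmest detected signal on each M array. The rise was called under every alternative tried, and with normexp background correction the log2 differences were 1.26, 1.76, 1.16 and 1.77. The DB#2 arrays overlapped those of D and lay below all arrays of DB#1 and DB#3, and above all of M.

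Mogat1, which encodes an enzyme that acylates monoacylglycerol back to diacylglycerol, was also higher in the later lines. It read -3.22, -3.38 and -4.32 in M, the last not detected, and -1.70, -1.67 and -1.35 in DB#2. It rose by 2.10 ± 0.44 in DB#1 (adjusted p = 0.00529), 2.06 ± 0.47 in DB#2 (adjusted p = 0.0126) and 2.51 ± 0.47 in DB#3 (adjusted p = 0.0023, limma). With normexp background correction the differences were 0.98 in DB#1 and 0.95 in DB#2, both called, and the second probe gave 1.32, 1.24 and, in DB#3, 2.59. Its call against M was lost without M replicate 3 in DB#1 and DB#2, and without DB#2 replicate 3 in DB#2. D, at -2.24, -3.27, -1.50 and -2.62, overlapped M. The list of 26 genes of lipid droplets and triglyceride turnover had 18 to 20 tested against M. Called higher were 1 gene in D (G0s2), 3 in DB#1 (G0s2, Mogat1 and Fitm1), 2 in DB#2 and 2 in DB#3 (both times G0s2 and Mogat1). Called lower was Gpat3, in DB#1 and in DB#3. Over all genes 2.96%, 3.69%, 3.44% and 2.76% were called in D, DB#1, DB#2 and DB#3, and 4, 4, 5 and 4 of the list had an unadjusted p under 0.05. Fitm1, which helps to form lipid droplets, and Gpat3, an acyltransferase of glycerolipid synthesis, are named here after their values were seen.

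Among 24 other lipases and lipid esterases, 14 were tested and Nceh1 was the 1 called against M, in DB#2. Nceh1 encodes neutral cholesterol ester hydrolase. It read 3.18, 2.87 and 3.26 in M and 4.38, 4.64 and 4.30 in DB#2, higher by 1.34 ± 0.29 with no overlap (adjusted p = 0.0079, limma). The call was lost without M replicate 2 or DB#2 replicate 2. In D replicate 1 read 4.39, and the other 3 arrays read 3.37 or less. Among 15 other ABHD proteins, 13 were tested and Abhd11, a mitochondrial hydrolase, was the 1 called, in DB#2, where 3.44% of all genes were called. It read 1.71, 1.27 and 1.85 in M and 2.63, 2.81 and 2.26 in DB#2, higher by 0.96 ± 0.24 (adjusted p = 0.0229, limma). That call was lost without M replicate 1 or 2, without DB#2 replicate 1 or 2, without the filter on dim probes and with the arrays of the 2 lines alone. Abhd11 lay higher than M by 0.66 ± 0.22 in D (adjusted p = 0.138), 0.67 ± 0.22 in DB#1 (adjusted p = 0.116) and 0.83 ± 0.23 in DB#3 (adjusted p = 0.0687, limma). It was called in all 3 with quantile normalization (adjusted p = 0.0181, 0.0292 and 0.0115), without scaling (0.0115, 0.0211 and 0.0281), with the percentile over detected probes (0.0122, 0.0209 and 0.00826) and with slide as a block (0.0383, 0.0155 and 0.00763, limma). In D, DB#1 and DB#3, 0 genes of either list were called against M, where 2.96%, 3.69% and 2.76% of all genes were called. In the same order 0, 1 and 0 lipases and 2, 3 and 2 ABHD genes had an unadjusted p under 0.05.

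**Figure D4:**
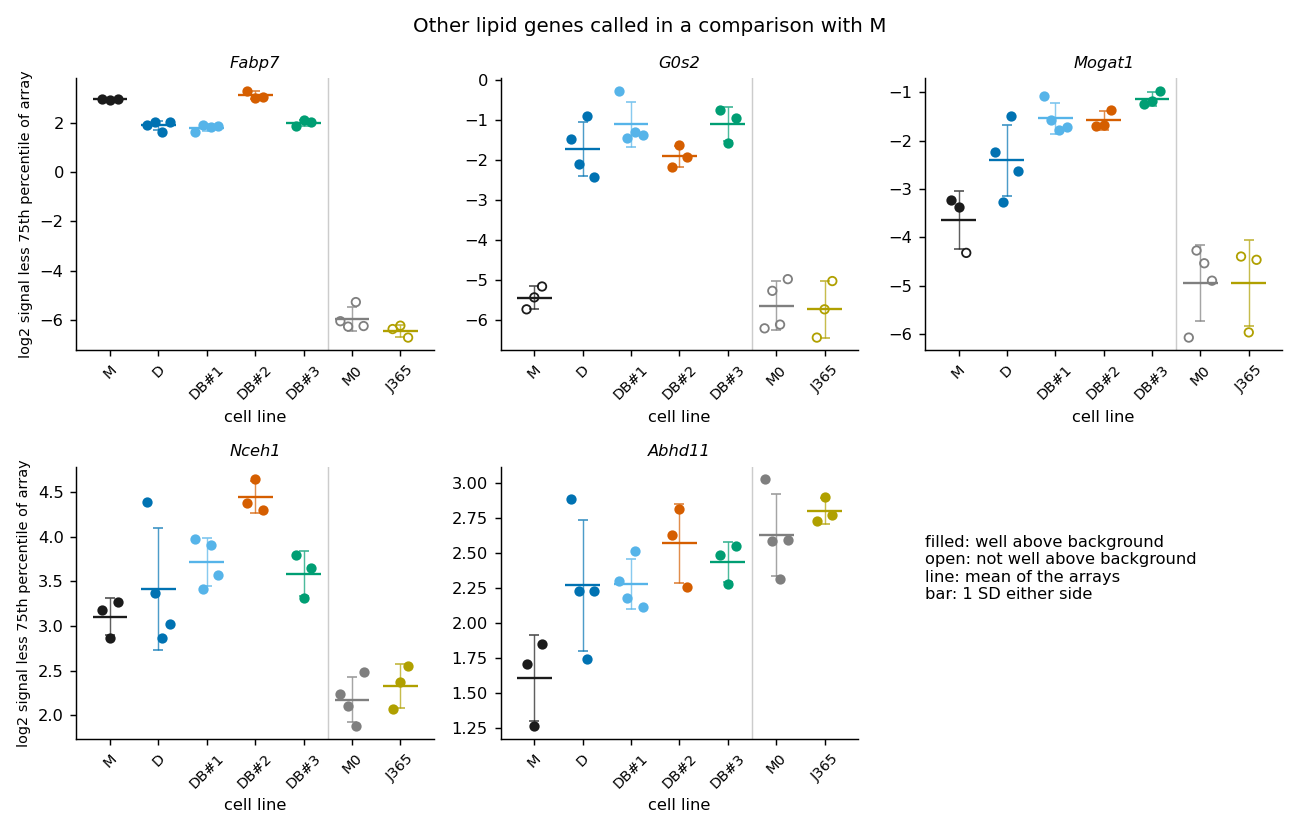
Fabp7, G0s2, Mogat1, Nceh1 and Abhd11 on each array, by line, each panel on its own y axis (log2 signal less the 75th percentile of the array). Filled points are well above background, open points are not, lines are means and bars 1 SD either side; Fabp7 has the Mgll pattern among melanoma lines, and G0s2 is detected on all 14 derived arrays and on no M array.

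Between DB#2 and D, where 6.34% of all genes were called, 2 of 9 endocannabinoid genes tested were called, Naaa and Fabp7, both higher in DB#2. Of 20 lipid droplet genes 2 were called, both lower, of 14 other lipases 2, both higher, and of 13 ABHD genes 0 by limma, with 4 at an unadjusted p under 0.05. Naaa encodes an acid amidase that hydrolyses N-acylethanolamines, and it was higher by 0.60 ± 0.13 (adjusted p = 0.00783, limma), a call lost without DB#2 replicate 2 and with the arrays of the 2 lines alone. Faah, the other hydrolase of that class, was the member that lay lower in the same comparison. Dgat2 and Agpat2, which act in triglyceride and phosphatidic acid synthesis, differed by -0.82 ± 0.24 (adjusted p = 0.0438) and -0.81 ± 0.21 (adjusted p = 0.0192, limma). Pafah2 and Nceh1 were higher by 0.87 ± 0.20 (adjusted p = 0.00973) and 1.03 ± 0.27 (adjusted p = 0.0235, limma). Leaving out DB#2 replicate 2 ended each of these calls except that of Fabp7, and the fit with the replicate number as a block ended those of Dgat2 (-0.82, adjusted p = 0.0811) and Nceh1 (0.93, adjusted p = 0.0553, limma). Naaa, Dgat2, Agpat2 and Pafah2 are named after their values were seen.

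Most of these genes were detected in both the myeloid and the melanoma lines, and Mgll, Dagla and Lipe differed in detection. Mgll and Dagla were detected on 0 of 7 myeloid arrays and on all 17 melanoma arrays. Lipe was detected on all 7, at -2.38, -2.82, -2.95 and -2.75 in M0 and -3.29, -3.68 and -3.30 in J365. Against M, Dagla was at least 17.1-fold lower in M0, with means of -6.17 and 0.0024 (adjusted p = 5.89e-16, limma), and Lipe at least 2.96-fold higher, with means of -2.73 and -6.02 (adjusted p = 0.000554, limma). All 9 other members were called in this comparison, 3 higher and 6 lower, where 58.5% of 22426 genes were called. The differences of M0 from M were -2.49 ± 0.29 for Abhd5, -2.25 ± 0.26 for Abhd12, -1.12 ± 0.16 for Abhd6, -0.76 ± 0.25 for Daglb and -0.69 ± 0.16 for Napepld. They were 0.59 ± 0.18 for Pnpla2 (adjusted p = 0.00783) and 0.55 ± 0.20 for Faah (adjusted p = 0.0231, limma). Both of those calls were lost without scaling between arrays. The ATGL gene and its co-activator gene thus lay on opposite sides.

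J365 and M0 did not differ by a called amount in any of the 8 members tested, in a comparison in which 1.47% of 20660 genes were called by limma. Abhd12 had the lowest unadjusted p, at 0.0462. It read -0.20, -0.59, -1.0 and -1.49 in M0 and -0.33, -0.26 and -0.23 in J365. The difference was 0.55 with a 95% interval from 0.010 to 1.08 (adjusted p = 0.557, limma). Within the 3 slides it was -0.060, 1.01 and 0.26, and the second Abhd12 probe differed by 0.050. The 3 Lipe values of J365 were all below the 4 of M0, by 0.70 on average. The interval ran from -2.21 to 0.82 (adjusted p = 0.972, limma). That interval rests on the spread pooled over all 7 lines. The SD of Lipe was 2.15 in D, against 0.25 in M0 and 0.22 in J365. For Pnpla2 the difference was 0.084 with an interval from -0.29 to 0.46, and for Faah -0.038 with an interval from -0.45 to 0.38. None of the 4 wider lists had a called gene in this comparison, with 1, 0, 2 and 1 genes at an unadjusted p under 0.05. The difference between D minus M and J365 minus M0 was called for none of the other 9 members. An unadjusted p under 0.05 was reached by 2, Napepld and Abhd6, where 2.07% of 23120 genes were called by limma. Dagla was not detected in either myeloid line and Lipe not in M, so their values there depend on the background. For these 2 genes the lack of a call says little.

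**Figure D5:**
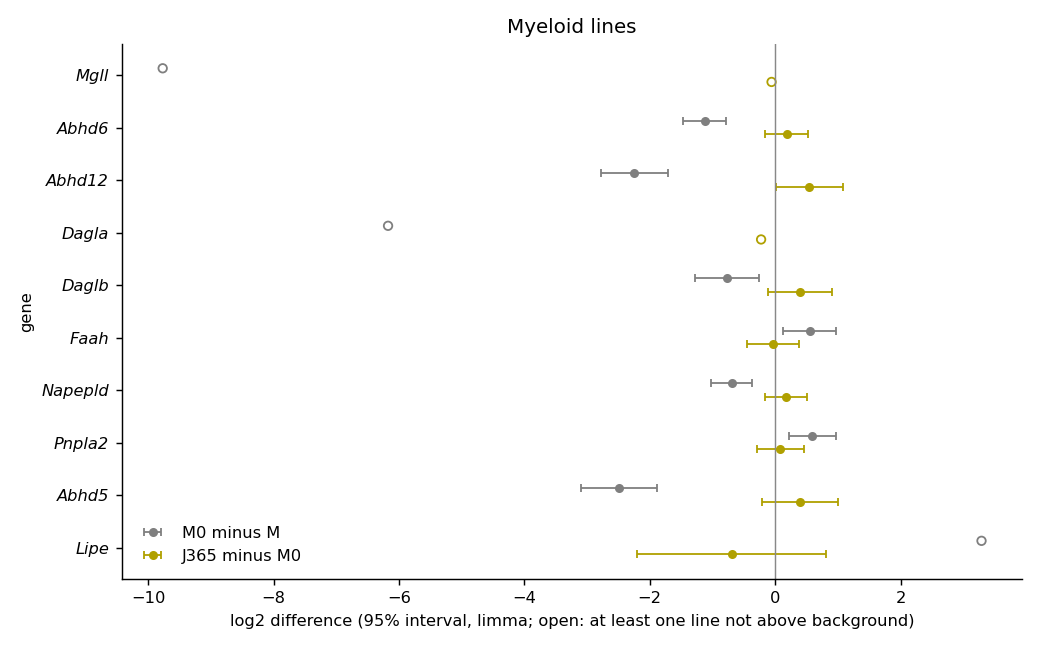
Differences of M0 from M (grey) and of J365 from M0 (olive) on the x axis (log2) for the 10 genes on the y axis. Bars are 95% intervals from limma, and open points mark genes not above background in at least 1 of the lines, whose distance depends on the background; Mgll and Dagla lie far to the left in M0 against M and Lipe to the right.

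The genes whose levels were most like those of Mgll over the 17 melanoma arrays, out of 12624 with a symbol and detected in M, were Hpse (Pearson r = 0.97), Dusp18 (0.96), Gm10639 (0.96), Cd82 (0.95) and Spaca9 (0.95). They are a description of arrays that share lines, with no test. Fabp7 had an r of 0.93 by the same measure. Hpse encodes heparanase, which cleaves heparan sulphate, and had means of 2.60 in M, 0.17 in D, 0.24 in DB#1, 2.71 in DB#2 and 0.59 in DB#3. Cd82, a tetraspanin of the cell surface, had means of 3.61, 1.76, 1.35, 3.55 and 2.04 in the same order, but unlike Mgll was as high in the myeloid lines, at 3.54 in M0 and 3.48 in J365. On D replicate 1 Hpse read 1.14 against 0.011 or less on the other D arrays, and Cd82 2.38 against 1.86 or less.

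D replicate 1 also lay nearer to M over many genes. On a scale where M is 0 and the mean of DB#1 and DB#3 is 1, the median position over 646 genes called between M and both of those lines was 0.697 for D replicate 1 and 0.861, 0.792 and 0.885 for replicates 2, 3 and 4. Mgll itself stood at 0.553, 1.15, 1.23 and 1.21. The replicate was the highest of the 4 D arrays for 4 of the 10 members, Mgll, Daglb, Abhd12 and Abhd5. That is not nearness to M in Daglb, Abhd12 and Abhd5, where it read 1.16, 2.24 and 2.53. The highest M arrays there read 0.94, 1.57 and 1.85. The same count over all genes was not made.

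The genes next to Mgll in the order of the RefSeq gene table did not share its pattern. On one side lie Eefsec, Ruvbl1 and Sec61a1 and on the other Abtb1, Mcm2 and Tpra1. None was called by limma in any derived line against M, where their differences in D ran from -0.34 in Tpra1 to 0.29 in Ruvbl1, with 0 of 6 at an unadjusted p under 0.05 in any of the 4 comparisons.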

How the data were processed

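Total RNA of 7 cell lines was hybridised to 24 single-colour Agilent mouse arrays, 8 arrays on each of 3 slides, and read with Agilent Feature Extraction 10.7.3.1. The deposited values were the scanner software's background-corrected intensities per spot (processed signal), and the deposited series table held the same intensities, equal in 1511424 of 1511424 values. The methods name GeneSpring for the analysis but no test for the arrays.

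Here, non-uniform and population outlier spots were removed, spots of a probe averaged, log2 taken and the 75th percentile of each array subtracted. Of 56605 probes, 117 were left out, and 56488 were used. Probes were named by matching transcript accessions, without versions, to RefSeq symbols: 32994 of 35886 accession probes matched. Where a gene had several probes, as 5 of the 10 genes did with 2 each, the brightest was used. limma 3.58.1 (R 4.3.3) was fitted to all 24 arrays in 1 model, lmFit and eBayes, 2-sided, with Benjamini-Hochberg adjustment over the genes detected throughout 1 or both of the compared lines. The procedure was tested on simulated data. No spot was saturated, and the number of arrays limits the precision. For a gene below background throughout a line, a lower bound on the fold was taken from the lowest signal among detected probes, or the gene's own signal where higher, on each array of that line.

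The genes and gene lists were chosen with earlier results of these data known. The text names all 10 genes, up to 3 genes of each pathway list with the largest change among those called in D or DB#2 against M or J365 against M0, the 5 genes with the highest correlation with Mgll, and the 3 tested genes on either side of it. Alternatives were quantile normalization, no scaling, the percentile over detected probes, normexp (offset 50, on median spot and background signals because mean signals were not used here), no filter, the mean of probes, slide as a block, replicate number as a block, the arrays of the 2 lines alone, and leaving out each array. The M0 array and the J365 array whose labels give no replicate number were left out of the fit with that number as a block. The comparison of DB#2 with DB#1 and leaving out D replicates 1 and 3 together were added after the data were seen. Replicate numbers were taken to pair samples in DB#1 against M (correlations of deviations 0.349 to 0.804) and DB#2 against D (0.185 to 0.644), where every pair exceeded 0.1. This pairing comes from the data, as the labels state none. The highest value in each of these comparisons came from its only pair on the same slide, and the part of the slide was not tested. Other comparisons held negative values, down to -0.664 in DB#3 against M.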

Additional observations from a re-analysis of the deposited data

Results flagged for a closer look

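Over 45 tests of single arrays in lines of 4, which chance passes in about 1 of 20, 4 values stood farther from their line than the Dixon criterion allows. Mgll on D replicate 1 was 1.87, with the nearest D array at 0.14. Faah on DB#1 replicate 1 was 0.42, with the nearest at 0.51. Lipe on D replicate 3 was -1.38, with the nearest at -5.55, on the array with 89.9% of probes well above background. G0s2 on DB#1 replicate 1 was -0.26, with the nearest at -1.31.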

How the results depend on the processing

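Of 922 values recomputed under an alternative, 780 kept their direction and side of the threshold or, for Mgll, moved by less than the spread between arrays, 31 moved, 5 turned sign, and the others kept their direction but lost the call. Counts of the 9 genes other than Mgll that were called moved as follows. D against M had 0 by limma, and 1 (Napepld) with the percentile over detected probes, the mean of probes or slide as a block, and 0 to 1 leaving out 1 array. DB#1 against M had 0, and 1 (Napepld) with the percentile over detected probes, 2 (also Abhd6) with the mean of probes or slide as a block, and 0 to 1 leaving out 1 array. DB#2 against M had 0, and 1 (Abhd6) with slide as a block, and 0 to 1 leaving out 1 array. At an unadjusted p under 0.05 these 3 counts were 1, 3 and 3. DB#2 against D had 2, and 1 with quantile normalization, no scaling, normexp, the mean of probes, the replicate block or without D replicates 1 and 3 together, 0 without the filter or with the arrays of the 2 lines alone, and 0 to 1 leaving out 1 array. DB#2 against DB#1 had 0, with 1 at an unadjusted p under 0.05, and 1 (Napepld) without scaling, with the percentile over detected probes, the mean of probes or slide as a block. The difference in Mgll between DB#1 and D was -0.10, 0.31 without D replicates 1 and 3 together, and -0.29 to 0.36 leaving out 1 array. Between DB#2 and M it was 0.12, and -0.088 to 0.53 leaving out 1 array. The cause of these shifts was not tested.

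Over all genes, 596 were called between D and M, against 1083 with slide as a block, 135 with the arrays of the 2 lines alone and 338 to 934 leaving out 1 array (338 without M replicate 3, 934 without D replicate 1). Between DB#2 and D, 1310 were called, against 2367, 300 and 757 to 2049 in the same order (757 without DB#2 replicate 3, 2049 without D replicate 1). Between DB#2 and DB#1, 1152 were called, against 657 without the filter, 1763 with the percentile over detected probes, 1965 with slide as a block and 629 to 872 leaving out 1 array. Slide as a block gave 1163 against 765 in DB#1 and 1113 against 720 in DB#2, both against M, and 499 against 303 between J365 and M0. Without scaling DB#2 against M had 1255, and with quantile normalization J365 against M0 had 539. DB#1 and DB#3 against D, with 96 and 74, had 34 and 11 with the arrays of the 2 lines alone. Without scaling, the median difference of all genes moved from -0.012 to 0.17 in D and from 0.017 to 0.25 in DB#2, both against M, and from 0.13 to -0.013 between M0 and M. With the replicate number as a block, Napepld lost its call in DB#2 against D (0.49, adjusted p = 0.0700, limma) as did Nceh1 and Dgat2. Where samples share only a number, Mogat1 lost its calls in DB#2 (2.06, adjusted p = 0.0510) and DB#3 (2.55, adjusted p = 0.0756) against M and Gpat3 in DB#3 (-2.10, adjusted p = 0.123, limma). The block changed no other call of a gene named in the report.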
